A study of Mus musculus with 8 samples.

Results

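The genes described here are the keratins of the interfollicular epidermis, in its basal layer (Krt5, Krt14) and its suprabasal layers (Krt1, Krt2, Krt10, Krt77, Krt80), with Gm11940, a transcript antisense to Krt10. They make up 8 of the 18770 genes listed. They were chosen by symbol with their normalized counts in alpinetin-treated (AP) and vehicle-treated (VC) skin already known, so their values and any calls on them are a description and support nothing. Alpinetin, a plant flavonoid studied here for hair regrowth, was applied to depilated back skin of wildtype C57BL/6 mice aged 7 to 8 weeks, 20 µl at 3 mg/ml in 65% ethanol. VC mice received 65% ethanol alone. The methods name the strain C57BL/6J. According to the methods only males were used, and RNA was taken on day 4 after depilation from dermis with hair follicles, after the interfollicular epidermis had been removed. Messenger RNA was sequenced in 4 AP and 4 VC libraries, and the values are normalized counts, that is reads per gene divided by a size factor of the library.

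The VC libraries held 7264151 (VC.1), 6833615 (VC.2), 6479827 (VC.3) and 6454563 reads (VC.4) on the listed genes. The AP libraries held 8507783 (AP.1), 10853773 (AP.2), 11190113 (AP.3) and 8863517 reads (AP.4). Values of single libraries are given in this order throughout. Mitochondrially encoded genes took 54.3%, 44.9%, 42.1% and 52.3% of the reads in the VC libraries, but 11.1%, 7.85%, 5.32% and 10.3% in the AP libraries. The groups do not overlap in this share (exact permutation test over libraries, 2-sided p = 0.0286, the smallest that 4 against 4 can give), so the libraries differ in RNA make-up beyond the keratins. Its part in the keratin differences was not tested. VC.1 lay furthest from the other libraries in 2 measures. Dixon's test within groups, run on the member values, their ratios and the mitochondrial share but not on these 2 measures, flagged no library. VC.1 had reads on 15172 genes, where the other VC libraries had 16510 to 17417, and lay at -124 on the first principal component of all genes tested, where VC.4 came next at -44.2. Without VC.1 limma called 584 genes higher and 255 lower, against 1011 and 639 with all libraries. The column names number the libraries in a way that matches no sample title, so no library is tied to a given mouse. A figure legend of the study gives 4 mice for each group, and p-values measure the spread between these libraries only.

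The basal layer of the epidermis divides and makes the keratin pair Krt5 and Krt14. A cell that leaves this layer turns these genes down and makes Krt1 and Krt10, and later layers add Krt2, which is prominent in mouse ear, sole and tail skin. Each filament is built from pairs of a type I keratin (Krt10, Krt14) and a type II keratin (Krt1, Krt2, Krt5, Krt77, Krt80). The outer root sheath of the follicle also makes Krt5 and Krt14, whereas Krt1 and Krt10 mark the interfollicular epidermis and the upper follicle opening.

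Krt10, the type I keratin of the suprabasal layers, was the most abundant suprabasal keratin per kb of exon in every library. It stood at 1302, 4085, 2280 and 1838 normalized counts across the VC libraries and at 15852, 17528, 47444 and 73321 in the AP libraries. The groups do not overlap: the lowest AP library is 3.88 times the highest VC library. The ratio of group means is 16.2, and the log2 difference from limma, on log2(normalized count + 1), is 3.85 (SE 0.50, n = 4 per group). Krt1, its type II partner, stood at 913, 3926, 2198 and 1365 normalized counts across the VC libraries and at 8605, 14466, 25209 and 50128 in the AP libraries. VC.2 was the highest VC library and AP.4 the highest AP library for both genes, again with no overlap. The log2 difference of Krt1 is 3.46 (SE 0.54), and its means differ 11.7-fold. The protocol describes the samples as lacking interfollicular epidermis, yet every library held at least 502 reads of Krt1 and 716 of Krt10, and the AP libraries at least 11864 and 21856. So RNA of these layers, or of the upper follicle opening that shares their keratins, was present in both groups. More keratinocytes of a layer and more keratin RNA per keratinocyte cannot be told apart in these bulk samples.

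Krt77, a type II keratin of the suprabasal epidermis and sweat gland ducts, varied differently among the AP libraries. Its values were 913, 833, 819 and 377 normalized counts across the VC libraries and 7191, 3642, 22463 and 22745 in the AP libraries. AP.2 was lowest here, whereas AP.1 was lowest for Krt1 and Krt10, and the lowest AP library was still 3.99 times the highest VC library. The log2 difference is 3.95 (SE 0.53) and the ratio of means 19.04. Krt80, a type II keratin found in many epithelia as cells differentiate, was far less abundant, at 186, 297, 255 and 199 normalized counts across the VC libraries and 659, 496, 968 and 1094 in the AP libraries. Its groups do not overlap, but the step is smaller, with a log2 difference of 1.73 (SE 0.26) and a ratio of means of 3.43.

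Krt2 had very few reads in several libraries. It had 5, 8, 2 and 0 reads in the VC libraries and 13, 20, 103 and 149 reads in the AP libraries. As normalized counts, AP.1 (9.43) and AP.2 (10.8) lay inside the VC range of 0 to 11.8, and only AP.3 (51.3) and AP.4 (107) lay above it. The log2 difference of 2.62 (SE 0.96) has the widest error of the 8 genes and depends on the pseudocount.

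The basal pair did not separate the groups. Krt5 stood at 11795, 33547, 21185 and 10241 normalized counts across the VC libraries and at 23014, 21214, 39776 and 60686 in the AP libraries. Krt14, its type I partner, stood at 9490, 39471, 21021 and 9915 in the VC libraries and at 19369, 24856, 42588 and 65025 in the AP libraries. For each gene 2 of the 4 AP libraries fell inside the VC range, and VC.2 exceeded AP.1 and AP.2. The log2 differences are 0.94 (SE 0.47) for Krt5 and 1.02 (SE 0.53) for Krt14, with means differing 1.88-fold and 1.90-fold.

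**Figure D1:**
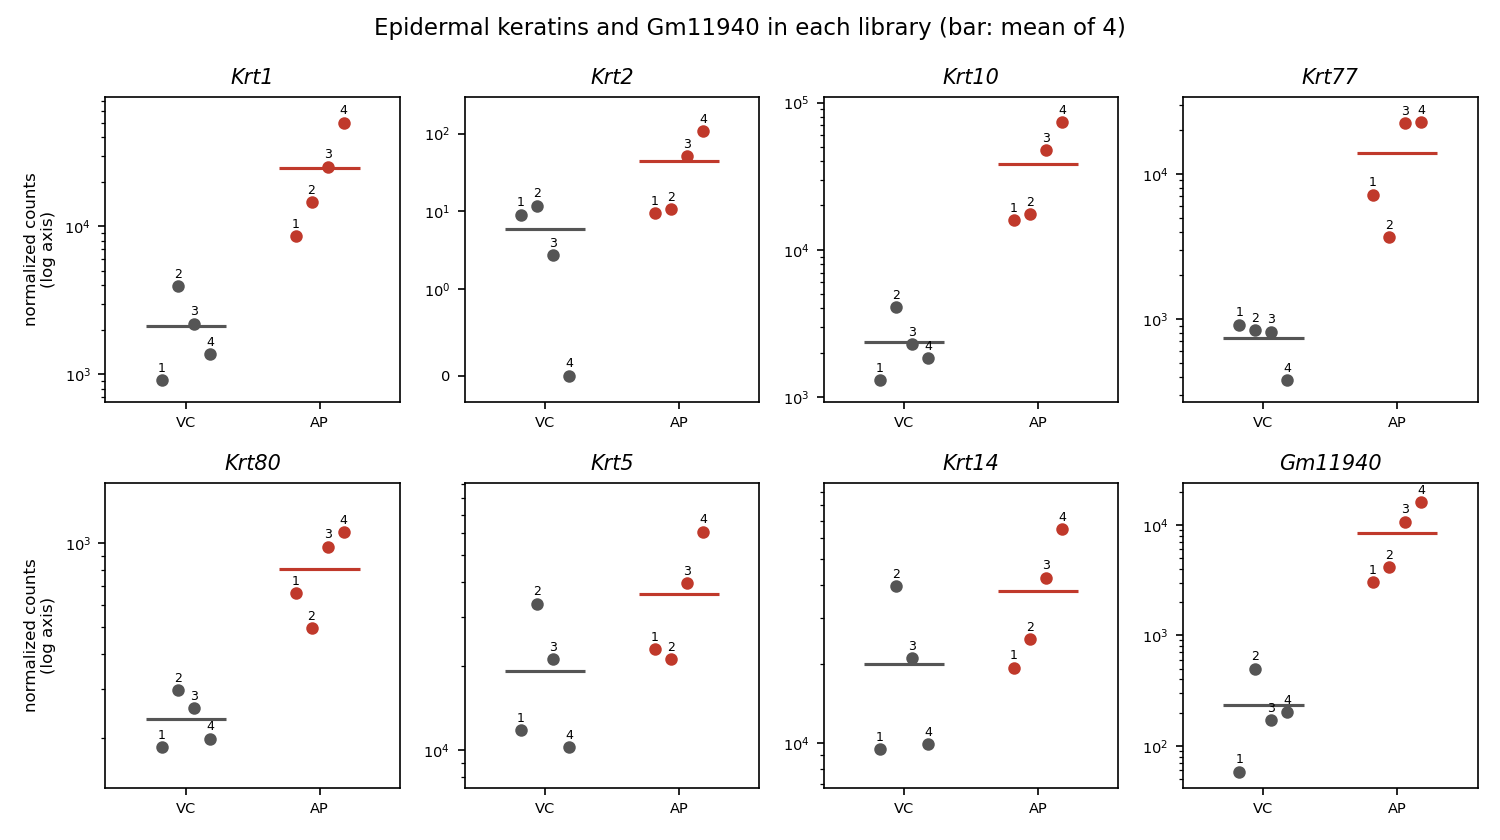
Normalized counts of the 7 keratins and Gm11940 in each library, on log axes (the Krt2 axis is linear below 1). Points are libraries, numbered 1 to 4 within VC (grey) and AP (red), and bars are group means. The groups are apart for Krt1, Krt10, Krt77, Krt80 and Gm11940 and overlap for Krt2, Krt5 and Krt14, where 2 AP libraries lie in the VC range.

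Since both layers share a library, their ratio does not depend on its scaling. Ratios were taken between normalized counts per kb of exon. The 5 suprabasal keratins summed to 0.108, 0.0837, 0.0878 and 0.130 of the summed basal pair in the VC libraries, and to 0.559, 0.542, 0.850 and 0.836 in the AP libraries. So suprabasal keratin RNA per kb was scarce beside basal in the VC libraries, at 0.102 of it on average, and AP.3 and AP.4 held nearly as much suprabasal as basal. The mean log2 ratio is -3.31 ± 0.29 (SD, n = 4) in VC and -0.55 ± 0.36 in AP, a difference of 2.76 (SE 0.23) or 6.75-fold. AP.3 and AP.4 lie above AP.1 and AP.2 in this ratio, and the highest VC library (0.130) lies well below the lowest AP library (0.542).

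Each type gave a like picture on its own. Among type I keratins the ratio of Krt10 to Krt14 per kb was 0.114, 0.0861, 0.0902 and 0.154 in the VC libraries and 0.681, 0.586, 0.926 and 0.938 in the AP libraries, a log2 difference of 2.83 (SE 0.26). Among type II keratins the ratio of Krt1 to Krt5 was 0.0385, 0.0582, 0.0516 and 0.0663 in the VC libraries and 0.186, 0.339, 0.315 and 0.411 in the AP libraries, a log2 difference of 2.51 (SE 0.30). AP.1 was the lowest AP library in the type II ratio and AP.2 in the type I ratio.

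**Figure D2:**
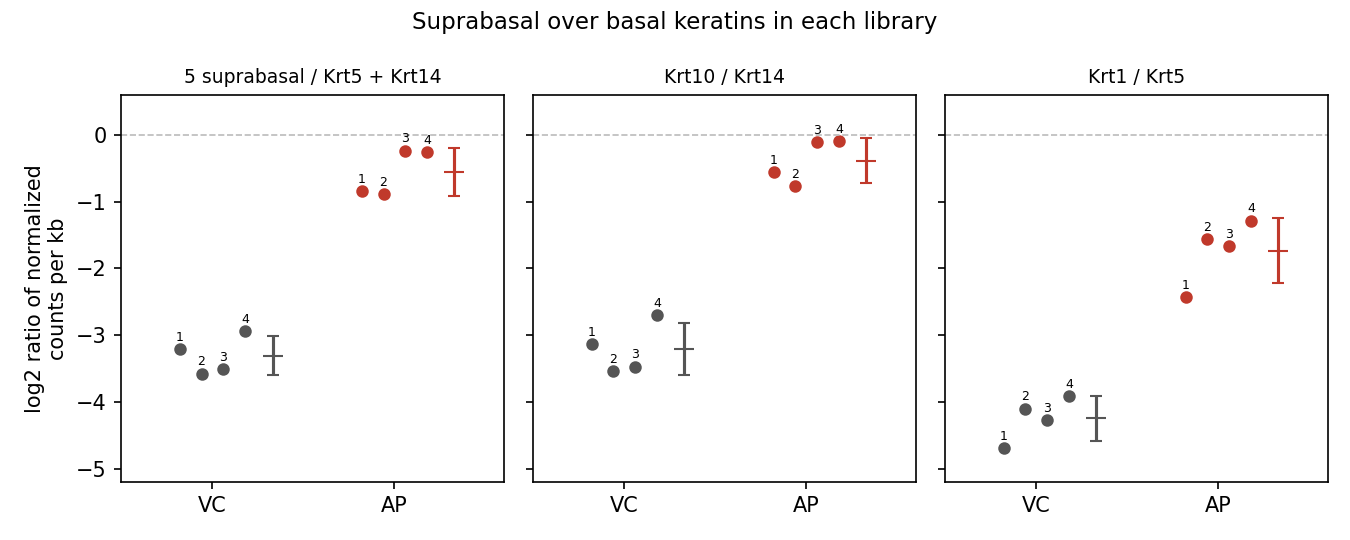
Log2 ratios of normalized counts per kb in each library: the 5 suprabasal keratins over Krt5 and Krt14, Krt10 over Krt14 and Krt1 over Krt5. Points are libraries, numbered within VC (grey) and AP (red), crosses with bars are means ± SD of 4 libraries, and the dashed line marks equal amounts. The AP libraries lie above all VC libraries in each panel, and the suprabasal to basal ratio ends at 0.850 in AP.3.

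Pairs of libraries show what the ratio adds. VC.2 held more Krt14 than AP.1 or AP.2 (39471 against 19369 and 24856 normalized counts), and yet it had the lowest suprabasal to basal ratio of all 8 libraries. VC.3 and AP.1 held similar Krt14 (21021 and 19369) and Krt5 (21185 and 23014), but Krt10 stood at 2280 in VC.3 and 15852 in AP.1. The 7 keratins together took 0.408%, 1.48%, 0.933% and 0.414% of the reads outside mitochondrially encoded genes in the VC libraries, and 1.36%, 1.52%, 3.38% and 4.80% in the AP libraries. VC.2 thus lay above AP.1 in total keratin while its make-up was basal.

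Between the groups the shares of Krt10, Krt1 and Krt77 in the suprabasal sum moved less than their levels did. Within VC, however, the Krt77 share spread more widely than its level. The share ran from 9.01% (VC.2) to 26.7% (VC.1), and the level from 377 to 913 normalized counts. Krt10 made up 59.0% ± 5.28 (SD, n = 4) of the suprabasal sum per kb in VC and 63.3% ± 1.08 in AP, Krt1 23.8% ± 4.56 and 19.6% ± 4.51, and Krt77 15.01% ± 8.20 and 16.4% ± 5.48. These shares overlap between the groups. Krt80 is the exception, at 2.10% ± 0.45 in VC and 0.549% ± 0.24 in AP without overlap, and its ratio to Krt10 per kb went from 0.0360 in VC to 0.00869 in AP on average. Its share was lower in AP although its own level was higher. Krt77 over Krt1 spread widely inside the groups, and ran from 0.320 (VC.2) to 1.51 (VC.1) in VC and from 0.379 (AP.2) to 1.34 (AP.3) in AP.

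The balance of type I and type II keratins overlapped between the groups. Krt10 and Krt14 summed to 1.25 ± 0.19 (SD, n = 4) times the type II members per kb in VC and to 1.45 ± 0.15 times in AP. The log2 difference is 0.22 (SE 0.14). The groups also overlap for Krt5 over Krt14 per kb, at 0.827 ± 0.13 in VC and 0.782 ± 0.12 in AP.

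Ordered by mean normalized counts per kb, VC skin held Krt14 (11362 ± 7993, SD, n = 4), Krt5 (8736 ± 4880), Krt10 (1124 ± 571), Gm11940 (557 ± 450), Krt1 (476 ± 301), Krt77 (251 ± 82.8), Krt80 (36.6 ± 8.09) and Krt2 (2.26 ± 2.10). Compared within libraries, Gm11940 and Krt1 changed places from one VC library to another, as did Krt1 and Krt77, so these neighbours do not differ beyond their spread, and the other neighbours kept this order in all 4. In AP the order by the same scale was Krt14 (21592 ± 11710), Gm11940 (20332 ± 14587), Krt10 (18229 ± 12941), Krt5 (16464 ± 8355), Krt1 (5572 ± 4157), Krt77 (4780 ± 3422), Krt80 (126 ± 43.0) and Krt2 (17.04 ± 17.5). Within the AP libraries each pair of neighbours from Krt14 down to Krt5 changed places, as did Krt1 and Krt77, while Krt5 lay above Krt1, and Krt77 above Krt80 and Krt2, in all 4. The order of Krt1 and Krt77 in AP depends on the length used, here the union of exons. Among all listed genes, Krt10 ranked 169 to 524 by normalized counts per kb in the VC libraries, and ranked 26, 23, 7 and 9 in the AP libraries.

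All 8 genes passed the filter on low values. limma called 5 of the 8 higher in AP (Krt1, Krt10, Krt77, Krt80 and Gm11940), where 6.33% of the 15964 genes tested were called higher. The same 5 had every AP library above every VC library, as did 10.3% of all genes. Nothing is read from these counts, since the comparison chose the genes. With AP.3 and AP.4 both left out, a setting added after the data were seen because these libraries carry the highest keratin values, 3 of 8 were called (Krt10, Krt77 and Gm11940), and the calls of Krt1 (log2 difference 2.62) and Krt80 (1.31) were lost. In that setting limma called 20 of all genes higher and 10 lower, against 1011 and 639 with all libraries.

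The keratins varied together from library to library. With each group centred on its mean, log2 values over the 8 libraries gave Pearson's r of 0.98 for Krt5 with Krt14, 0.96 for Krt1 with Krt10, 0.96 for Krt1 with Krt14 and 0.92 for Krt10 with Krt5. Krt77 followed less closely, with r of 0.58 with Krt1 and 0.73 with Krt10, but 0.85 with Krt80. Krt2, with few reads, also followed less closely, with r of 0.65 with Krt1 and 0.70 with Krt10, but 0.85 with Krt77. These values describe 8 libraries that share size factors and tissue dissection, and they carry no test.

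Gm11940 is a transcript of 2 exons annotated as antisense, on the plus strand of chromosome 11 inside the Krt10 gene. It showed the widest difference of the 8 genes. Its normalized counts were 58.2, 498, 171 and 203 in the VC libraries and 3029, 4128, 10698 and 16058 in the AP libraries, and the reads behind them ran from 32 to 337 in VC and from 4177 to 22451 in AP. The groups do not overlap, the log2 difference is 5.25 (SE 0.62) and the means differ 36.5-fold. Gm11940 also differed more than Krt10 did. Per 1000 normalized counts of Krt10 there were 44.7, 122, 74.9 and 110 of Gm11940 in the VC libraries, and 191, 236, 225 and 219 in the AP libraries. The AP libraries agree closely in this ratio while the VC libraries spread widely, and the log2 difference is 1.41 (SE 0.33).

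Strand decides what these reads are. Exon 1 of Gm11940 spans chr11:99387340-99387419 (GRCm38), of whose 80 bases 52 lie in an exon of Krt10, and exon 2 spans chr11:99387561-99387897, of whose 337 bases 94 do. In all, 146 of its 417 exonic bases are exonic in Krt10, and the other 271 lie in Krt10 introns. The strand setting used in counting is not given in the sources used here. Reads of Krt10 messenger RNA, of unspliced Krt10 RNA and of a true antisense transcript therefore cannot be told apart at this locus, and the Gm11940 values are uncertain as a measure of antisense RNA. The sequences show the overlap, in capitals where the base is also exonic in Krt10, read 5′ to 3′ on the plus strand, with exon 2 given for its first 150 bases (chr11:99387561-99387710).
Gm11940 exon 1: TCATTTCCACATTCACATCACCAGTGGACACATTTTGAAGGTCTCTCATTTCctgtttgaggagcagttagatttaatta
Gm11940 exon 2: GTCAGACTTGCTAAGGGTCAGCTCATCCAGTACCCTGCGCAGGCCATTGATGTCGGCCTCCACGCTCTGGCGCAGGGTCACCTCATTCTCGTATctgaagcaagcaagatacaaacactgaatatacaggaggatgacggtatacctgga

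**Figure D3:**
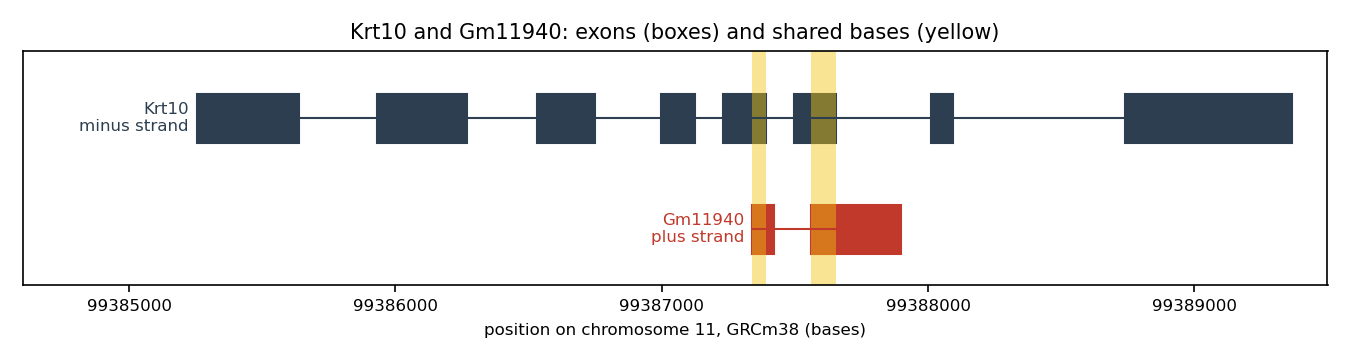
Map of Krt10 (minus strand) and Gm11940 (plus strand) on chromosome 11, position in bases of GRCm38. Boxes are exons, lines are introns and yellow marks the 146 bases that are exonic in both genes, which lie in 2 internal exons of Krt10.

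The type I genes lie on chromosome 11 (Krt10, ENSMUSG00000019761, chr11:99385254-99389364, and Krt14, ENSMUSG00000045545, chr11:100203162-100207548) and the type II genes on chromosome 15, all on the minus strand. Krt2 (ENSMUSG00000064201, chr15:101810689-101818169), Krt1 (ENSMUSG00000046834, chr15:101845426-101850794) and Krt77 (ENSMUSG00000067594, chr15:101858731-101869705) follow each other there with no other protein-coding gene between. Krt1 and Krt77 are 7937 bases apart and Krt2 and Krt1 27257. Krt5 (ENSMUSG00000061527, chr15:101707070-101712898) and Krt80 (ENSMUSG00000037185, chr15:101347444-101370162) lie further down the chromosome.

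The promoters of 3 suprabasal keratins are shown with that of Krt5. RefSeq sequences of GRCm38.p6 matched 5 of the 8 genes, of which Krt14 is left out because its RefSeq start lies 1518 bases from the annotated start, and Krt1, Krt80 and Gm11940 are named only. Each run holds the 250 bases before the RefSeq start, read 5′ to 3′ along the minus strand. Capitals mark matches, on either strand, to 4 motifs. TATAAA is the usual TATA box, and the variant TATATA can overlap it. TGANTCA is the motif of the Fos and Jun factors, and TTNNGCAA that of C/EBP factors. The windows are chr11:99389365-99389614 for Krt10, chr15:101869706-101869955 for Krt77, chr15:101818170-101818419 for Krt2 and chr15:101712906-101713155 for Krt5, whose RefSeq start is 7 bases from the annotated one.
Krt10: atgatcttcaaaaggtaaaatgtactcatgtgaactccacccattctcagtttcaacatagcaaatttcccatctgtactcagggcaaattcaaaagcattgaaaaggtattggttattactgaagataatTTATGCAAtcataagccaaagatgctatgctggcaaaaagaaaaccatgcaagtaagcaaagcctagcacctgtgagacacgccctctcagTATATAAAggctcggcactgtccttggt
Krt77: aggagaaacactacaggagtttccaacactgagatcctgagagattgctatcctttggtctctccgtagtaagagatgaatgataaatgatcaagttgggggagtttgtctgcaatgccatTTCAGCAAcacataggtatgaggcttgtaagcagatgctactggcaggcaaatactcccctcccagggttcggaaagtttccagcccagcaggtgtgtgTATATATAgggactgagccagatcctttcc
Krt2: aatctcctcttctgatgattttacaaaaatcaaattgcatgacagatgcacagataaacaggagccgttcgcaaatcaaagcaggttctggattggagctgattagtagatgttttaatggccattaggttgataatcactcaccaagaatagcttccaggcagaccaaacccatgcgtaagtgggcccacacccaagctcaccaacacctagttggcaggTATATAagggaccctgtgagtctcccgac
Krt5: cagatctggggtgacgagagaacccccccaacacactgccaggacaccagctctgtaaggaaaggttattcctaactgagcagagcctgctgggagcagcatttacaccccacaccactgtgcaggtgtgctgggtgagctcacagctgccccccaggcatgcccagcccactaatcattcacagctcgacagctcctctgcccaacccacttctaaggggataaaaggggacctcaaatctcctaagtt
The 3 suprabasal promoters hold TATATA, starting at -28 in Krt10, at -30 and -28 in Krt77 and at -29 in Krt2, and Krt10 also holds TATAAA at -26. TTNNGCAA is found at -119 in Krt10 and at -129 in Krt77. TGANTCA is in none of the windows, and the Krt5 window holds none of the 4 motifs. Of 27025 promoter windows of the same length, 5.56% hold TATATA, 13.0% TATAAA, 9.55% TTNNGCAA and 6.87% TGANTCA. A match describes letters only.

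Shared sequence bears on how safely reads are assigned. No 50-base word of Krt1, Krt2 or Krt77 transcripts occurs in a transcript of another gene, on either strand. Krt5 shares 12.2% of its words, with Krt6a and Gm5478 and, on the opposite strand, with Gm44323, and Krt14 shares 13.9%, mainly with Krt16 and Krt17. Krt10 shares 2.37%, all with Gm11940 on the opposite strand, and Krt80 shares 2.74%, nearly all with Gm35853 on the opposite strand. The basal values are therefore less certain in this respect than those of Krt1 and Krt77.

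Of 20 other epithelial keratins 18 were listed and 13 tested. Of these 4 rose (Krt6b, Krt16, Krt23 and Krt78), where 6.33% of all genes tested did, and the median log2 difference was 0.56, beside 0.06 over all genes tested. Krt16, a keratin of wounds and the companion layer, averaged 254 normalized counts in VC and 4012 in AP, with a log2 difference of 4.02 (SE 0.80, limma adjusted p = 0.0163). Krt6b, made with it, averaged 58.0 and 4362 (log2 difference 7.03, SE 1.42, limma adjusted p = 0.0167). For Krt16, AP.1 (555) lay inside the VC range, below VC.2 (588). For Krt6b, VC.1 had 0, and AP.1 (237) lay little above VC.2 (177). The follicle keratins Krt17 (5070 and 7527 normalized counts, log2 difference 0.56, SE 0.30) and Krt15 (4351 and 5571, log2 difference 0.25, SE 0.36) were not called by limma, nor was Krt79 of the upper follicle (4146 and 5212, log2 difference 0.47, SE 0.30), which was called without VC.2 (0.82). limma-voom called 1 of the 13, and the Krt6b call (6.86) was among those lost. Without AP.3 or without AP.4 no gene of the list was called by limma (Krt16 at 3.59 and 3.77, Krt6b at 6.40 and 6.69), and with both out 3 were higher at an unadjusted p under 0.05, as were 8.54% of all genes in that setting. Without VC.1 the count was 3.

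Suprabasal cells also make the proteins that bundle keratin filaments and build the cornified envelope. Of 20 such genes, all tested, 13 rose, where 6.33% of all genes did, with a median log2 difference of 2.36, and limma-voom called 8. Loricrin (Lor), the main envelope protein, stood at 555, 399, 692 and 266 normalized counts across the VC libraries and at 5695, 416, 10478 and 6788 in the AP libraries. AP.2 thus lay in the VC range for Lor although its Krt10 did not. The Lor call (log2 difference 3.001, SE 0.80, limma adjusted p = 0.0386) was lost when any single library other than AP.2 was left out, at values from 2.49 (without AP.3) to 3.21 (without VC.3). Hornerin (Hrnr) averaged 15.2 and 496 normalized counts (log2 difference 4.41, SE 0.76, limma adjusted p = 0.0104, a call lost with limma-voom). Dmkn, secreted by suprabasal cells, averaged 948 and 5132 (log2 difference 2.27, SE 0.37, limma adjusted p = 0.00896), and Sprr1b, an envelope precursor, 20.6 and 318 (log2 difference 3.59, SE 0.71, limma adjusted p = 0.0165, a call lost with limma-voom and without AP.3 or AP.4). Sbsn, also secreted, averaged 1516 and 3044 and was not called by limma (log2 difference 0.91, SE 0.32), but was with DESeq2 (1.01) and without AP.2 (1.19). The count of 13 was 11 without VC.1, 6 without AP.3, 6 without AP.4, and with both left out limma called none, while 12 were higher at an unadjusted p under 0.05, as were 8.54% of all genes in that setting. Over all genes limma called 584 higher without VC.1, 211 without AP.3 and 257 without AP.4, against 1011 with all libraries.

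Desmosomes anchor keratin filaments at the cell surface. Of 15 such genes 12 rose, where 6.33% of all genes did, with a median log2 difference of 1.75. Desmoplakin (Dsp), which ties the filaments to the junction, stood at 1868, 3309, 2276 and 1208 normalized counts across the VC libraries and at 6535, 8179, 16334 and 19681 in the AP libraries. These groups do not overlap, and the log2 difference is 2.49 (SE 0.38, limma adjusted p = 0.00843). Dsc1, the desmocollin of the upper layers, rose by 3.29 on the log2 scale (SE 0.50, limma adjusted p = 0.0078), and Dsg3, the desmoglein of the lower layers, by 3.24 (SE 0.41, limma adjusted p = 0.0036). Pkp1, a plakophilin of suprabasal desmosomes, averaged 1048 and 4935 normalized counts (log2 difference 2.19, SE 0.38, limma adjusted p = 0.0104). Perp, a membrane protein of the junction, averaged 3519 and 8270 (log2 difference 1.19, SE 0.34, limma adjusted p = 0.0462), a call lost when any single library other than AP.1 was left out, at values from 0.94 without VC.4 to 1.34 without AP.2, and also with upper-quartile scaling or no filter. The count of 12 was 8 without VC.1, 6 without AP.3 and 6 without AP.4, and with both out none was called, while 11 were higher at an unadjusted p under 0.05 (8.54% of all genes). All-gene counts of higher calls were 584 without VC.1, 211 without AP.3 and 257 without AP.4, against 1011 with all libraries.

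The hemidesmosome holds basal cells to the basement membrane. Of 13 of its and other basal layer genes, all tested, 10 rose, where 6.33% of all genes did, with a median log2 difference of 1.11. Itga6, the integrin alpha chain of the hemidesmosome, averaged 488 normalized counts in VC and 1805 in AP (log2 difference 1.92, SE 0.31, limma adjusted p = 0.00896), and Dst, which links it to keratin, 1384 and 4075 (log2 difference 1.56, SE 0.26, limma adjusted p = 0.00896). Plec, a linker like Dst, averaged 1259 and 2957 (log2 difference 1.33, SE 0.27, limma adjusted p = 0.0173), a call lost without AP.3 or AP.4. Col17a1, the collagen of the hemidesmosome, averaged 1579 and 4828 (log2 difference 1.73, SE 0.42, limma adjusted p = 0.0298), and Lama3, a laminin chain, 135 and 462 (log2 difference 1.89, SE 0.46, limma adjusted p = 0.0294). Both calls were lost without VC.1, VC.4, AP.3 or AP.4, and that of Lama3 also without AP.2. Whether these genes differ from Krt5 and Krt14 in their change was not tested. The count of 10 moved when single libraries were left out: it was 3 without VC.1, 4 without VC.4, 4 without AP.2, 2 without AP.3 and 2 without AP.4. Calls over all genes moved too, with 584, 729, 385, 211 and 257 genes higher in those settings, against 1011 with all libraries. At an unadjusted p under 0.05, 12 of the 13 were higher with all libraries (17% of all genes), and 11, 11, 12, 11 and 11 in those settings. With AP.3 and AP.4 both out none was called by limma, while 8 were higher at an unadjusted p under 0.05 (8.54% of all genes).

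Of 25 known regulators of suprabasal differentiation, all tested, 3 rose (Klf4, Notch2 and Notch3), where 6.33% of all genes did, with a median log2 difference of 0.51. At an unadjusted p under 0.05, 13 of the 25 were higher and 1 lower, as were 17% and 13.3% of all genes. Klf4, a factor of barrier formation, averaged 994 normalized counts in VC and 2127 in AP (log2 difference 1.07, SE 0.19, limma adjusted p = 0.0108), and Notch3, a receptor of suprabasal cells, 224 and 878 (log2 difference 1.93, SE 0.29, limma adjusted p = 0.00684). Grhl3, needed for the barrier, averaged 37.1 and 229, with 0 in VC.4, and was not called by limma (log2 difference 3.52, SE 1.08, limma adjusted p = 0.0589). It was called with edgeR (2.58), with DESeq2 (2.62), with a pseudocount of 5 (2.88), without VC.2 (4.15) and without VC.4 (2.12). Cebpa, the most abundant of the list, had a log2 difference of 0.48 (SE 0.23), and Cebpb of -0.09 (SE 0.19), whose sign turns without VC.2 (0.05). Without AP.1 the count was 8, and DESeq2 on recovered reads called 9 higher and 1 lower. With AP.3 and AP.4 both out limma called none, and 3 were higher and 1 lower at an unadjusted p under 0.05, as were 8.54% and 6.57% of all genes.

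Markers of the other cells in the tissue were measured beside the keratins, and their part in the keratin values was not tested. Outer root sheath and follicle stem cell markers summed to 16197, 15017, 17825 and 17745 normalized counts across the VC libraries and 17307, 13288, 23998 and 20919 in the AP libraries, led by Krt17. In VC.4, however, Postn made up 9079 of the sum and Krt17 3017, and in AP.1 Krt15 (5466) lay above Krt17 (5012). limma called none of 11, where 2 were higher and 2 lower at an unadjusted p under 0.05 (17% and 13.3% of all genes), and edgeR, DESeq2 and limma-voom called 1, 2 and 1 lower. Sebaceous gland markers summed to 17330, 53019, 18714 and 22695 in the VC libraries and 35051, 44708, 21396 and 26113 in the AP libraries, led by Scd1. limma called none of 11, with 1 higher at an unadjusted p under 0.05 (17% of all genes), edgeR and limma-voom also called none, and DESeq2 called 1 higher. The sebaceous sum was highest in VC.2, the VC library with the most keratin.

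Fibroblast markers summed to 122139, 82723, 84344 and 224728 normalized counts across the VC libraries and 257392, 190207, 137103 and 99167 in the AP libraries. Col1a1 had the highest mean in AP (55218), but in VC Col3a1 (37553) lay above Col1a1 (36683). limma, edgeR and limma-voom called none of 10, DESeq2 called 1 lower, and 1 was higher and 1 lower at an unadjusted p under 0.05 (17% and 13.3% of all genes). Within AP the fibroblast sum was highest in AP.1 and lowest in AP.4, opposite to Krt10. Adipocyte markers summed to 44709, 16060, 16813 and 30379 in VC and 30692, 43642, 19357 and 16553 in AP. Cfd had the highest mean in AP (9667), but in VC Car3 (8167) lay above Cfd (7864). limma, edgeR, DESeq2 and limma-voom called none of 8, and 2 were higher at an unadjusted p under 0.05 (17% of all genes).

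Skeletal muscle markers, led by Acta1, separated AP.1 from the other AP libraries. They summed to 50705, 77437, 40887 and 38730 normalized counts across the VC libraries and to 76095, 9884, 5837 and 12494 in the AP libraries. AP.1, the AP library with the least Krt10, lay inside the VC range of this sum. Of 12 markers 1 fell, where 4% of all genes did (Tnnc2, log2 difference -2.05, SE 0.59, limma adjusted p = 0.0497, a call lost when any single library other than AP.1 was left out, at values from -2.29 without VC.4 to -1.56 without AP.3, and also with edgeR, with DESeq2, with either total count scaling, with no filter and with a pseudocount of 0.5). The median log2 difference was -1.72, and 9 of the 12 were lower at an unadjusted p under 0.05, as were 13.3% of all genes. Without AP.1 all 12 were called lower.

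Leukocyte markers, led by Cd74 in the mean of each group, summed to 16671 ± 8816 (SD, n = 4) normalized counts in VC and 10584 ± 2381 in AP. In VC.1 and VC.3 Lyz2 (9603 and 3549) lay above Cd74 (7374 and 3378). Of 15 tested 2 rose, where 6.33% of all genes did: Cd207 of Langerhans cells (log2 difference 1.72, SE 0.38, limma adjusted p = 0.0224) and S100a9 (log2 difference 3.11, SE 0.82, limma adjusted p = 0.0365). The median log2 difference of the list was -0.15, 5 were higher and 3 lower at an unadjusted p under 0.05 (17% and 13.3% of all genes), and DESeq2 called 3 higher and 2 lower. Langerhans cells live in the epidermis, and Cd207 was lower in every VC library (28.1 to 52.5 normalized counts) than in any AP library (79.8 to 294). Both calls were lost with limma-voom (1.70 and 3.13), without AP.3 (1.76 and 3.04) or without AP.4 (1.37 and 2.53), and that of S100a9 also without AP.2 (2.93), VC.1 (2.79), VC.3 (2.95) or VC.4 (3.08).

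Endothelial markers summed to 1605 ± 525 (SD, n = 4) normalized counts in VC and 4112 ± 2271 in AP. Vwf had the highest mean in VC (497), but in AP Pecam1 (1214) lay above Vwf (1203). Of 7 tested 2 rose (Pecam1 and Cdh5), where 6.33% of all genes did, with a median log2 difference of 1.38. At an unadjusted p under 0.05, 6 were higher (17% of all genes), DESeq2 called 5, and the limma count was 4 without VC.4 and 1 without VC.1, VC.2, AP.2, AP.3 or AP.4. Melanocyte markers, led by Dct, summed to 3434 ± 1285 in VC and 1636 ± 365 in AP. Of 7 tested 4 fell (Pmel, Mlana, Tyr and Mitf), where 4% of all genes did, with a median log2 difference of -0.83, and 1 was called when any single library other than VC.4 was left out or under either total count scaling. At an unadjusted p under 0.05, 5 of the 7 were lower (13.3% of all genes). Melanocytes of mouse back skin sit mainly in the follicle, and not in the interfollicular epidermis. Red blood cell markers summed to 686 ± 189 in VC and 1015 ± 395 in AP, with 1 of 5 called higher (Hbb-bs, log2 difference 1.24, SE 0.28, limma adjusted p = 0.0231, a call lost at 1.19 without VC.1, 1.02 without AP.2 and 1.32 without AP.4). Mitochondrially encoded genes, led by mt-Co1, had a median log2 difference of -3.38, and 10 of 12 fell, where 4% of all genes did. All 12 had every AP library below every VC library, as did 8.91% of all genes. edgeR and limma-voom called all 12 lower, DESeq2, run without the filter, called 13 of 13, and limma called 6 without AP.2, 6 without AP.3 and 5 with AP.3 and AP.4 both out.

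Genes whose log2 values ran closest to the summed suprabasal keratins over the 8 libraries, of 11250 compared, were Rel (Pearson's r 0.996), Cep170b (0.994), Susd2 (0.992), Fam83b (0.991) and Pkp1 (0.991). Genes that ran close to Krt5 and Krt14 summed included Zbtb7b (0.986), Arhgef16 (0.985), Faah (0.979) and Ftsj3 (0.975). The genes named for the 2 sums do not overlap. Rel has means of 48.6 normalized counts in VC and 118 in AP. Unlike the correlations among the keratins above, these were not centred by group, so the difference between AP and VC enters them. The 8 libraries share depth and dissection differences, and the values carry no test.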

How the data were processed

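Reads were cleaned by the authors, mapped with STAR to the mm10 genome and assigned to genes (featureCounts in the methods, HTSeq in the submitters' processing notes), with versions, annotation and strand setting not given in the sources used here. The deposited signal values are normalized counts, in which a library's reads per gene share 1 divisor, the size factor from DESeq2. All 150160 values were whole multiples of 1 step per library (tolerance 0.01 reads), so reads were recovered. The table's columns of the authors' own DESeq2 comparison (mean, fold change, its error, statistic, p and adjusted p) were not used, and 0 sample columns were left out.

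Genes reaching 3 normalized counts in 4 or more of the 8 libraries were compared with limma 3.58.1 (R 4.3.3, intensity trend) on log2(value + 1). For low genes the log2 difference so obtained departed from that of DESeq2 in either direction. It was larger for Grhl3, with 0 in VC.4 (3.52 against 2.62), and for Krt6b, with 0 in VC.1. It was smaller for Krt2 (2.62 against 2.90), which also had 0 in VC.4. P-values were adjusted by Benjamini-Hochberg over 15964 genes and called under 0.05. edgeR 4.0.16, DESeq2 1.42.0 and limma-voom on recovered reads, other scalings, filters and pseudocounts, reads drawn down to 6454563, the study's criteria and each library left out were alternatives. On the recovered reads edgeR called 1003 genes higher and 712 lower. Only the main limma comparison was run on simulated data with known changes, and its rate of recovery is not given here. Replicates of a group differed with a chi-square of 15.8 to 78.9 per degree of freedom, so counting error is small beside the spread and no library repeats another.

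Lengths and coordinates came from GENCODE M21 (18766 of 18770 identifiers matched), with length as the union of exons. This length exceeds the longest transcript most for Krt1 (4415 against 3133 bases) and Krt80 (6393 against 3919), and not for Krt77 (2931). Values, shares and ratios per kb that involve Krt1 or Krt80 therefore depend on this choice. Members and lists were chosen with earlier results of these data known. The rule for named genes took all 8 members, the 3 most abundant and the 2 most changed of each list, and for likeness the 5 genes with the highest correlation with each keratin sum. Of the genes so taken, some in the lists of other cell types and for likeness are not printed. Genes called in a list with 5 or fewer calls were named after their values were seen.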

Additional observations from a re-analysis of the deposited data

How the results depend on the processing

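The differences in the suprabasal to basal, Krt10 to Krt14 and Krt1 to Krt5 ratios had leave-one-out ranges (log2) of 2.65 to 2.88, 2.72 to 2.998 and 2.36 to 2.75, and were 2.45, 2.55 and 2.25 with AP.3 and AP.4 both left out, below each of those ranges. Scaling cannot move them. Those of the type I to type II balance and of Gm11940 to Krt10 ran from 0.12 to 0.30 and from 1.12 to 1.598, and were 0.17 and 1.37 with both left out. The suprabasal to basal difference was 2.60 with Krt10 taken out, which was chosen after seeing the data. Members called stayed at 5 with any library left out (lowest 5, highest 5), were 6 with DESeq2 (Krt2 added), 8 under total count scaling, and 3 with AP.3 and AP.4 both left out, also chosen after seeing the data. Members' log2 differences were above 0 in all 22 settings, from 0.37 for Krt5 and 0.39 for Krt14 upward.

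Counts over all genes moved more. Genes higher and lower in AP numbered 1011 and 639, with DESeq2 1667 and 1394, under total count scaling 8670 and 65, with AP.3 and AP.4 both out 20 and 10, and from 211 to 1061 and from 96 to 812 with each library left out. Leaving out AP.1 gave the most calls (1061 and 812) and AP.3 the fewest (211 and 96), and the causes of these shifts were not tested. The share of calls that were higher was 61.3%, against 49.7% with limma-voom and 99.3% under total count scaling, which shifts the median log2 difference of all genes to 0.90 and adds calls for Krt17, Krt15, Krt79, Cebpa, Grhl3, Sbsn, Scd1, Col1a1, Cfd and Vwf. Signs turned for Cebpb (0.78 under total count scaling, and from -0.22 to 0.051 with each library left out, the last without VC.2), Cd74 (0.61 under total count scaling, and from -0.58 to 0.082, the last without VC.4), Dct (0.037 under total count scaling), Scd1 (from -0.016, without VC.3, to 0.496) and Krt15 (-0.28 with AP.3 and AP.4 out), none of them called in the main comparison. Total count scaling moves all genes up nearly alike, so the turns under it are fixed by that shift, and the cause of the others was not tested. No paired analysis was possible because the sample titles of the groups share no number and the columns match none. Depth limits Krt2 most, with 0 to 8 reads in VC. Each alternative listed was run, and scaling without mitochondrially encoded genes gives no value for those genes.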
